A study of Mus musculus with 2 samples.

Results

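A list of 8 genes that restrain or drive entry into the cell cycle was followed: the cyclin-dependent kinase (CDK) inhibitors Cdkn1a, Cdkn1b, Cdkn1c, Cdkn2a and Cdkn2c, and the D cyclins Ccnd1, Ccnd2 and Ccnd3. They were taken as a list of symbols, and all 8 were among the 32286 features of both matrices. Their levels were read in cells sorted from knee joint cartilage of Procr-CreER;tdTomato mice, in which a tamoxifen-dependent Cre recombinase is driven by the Procr promoter and a cell that has recombined, with its descendants, carries tdTomato. All mice received tamoxifen at 4 weeks of age. The trace library held cells taken 4 weeks after tamoxifen and the pulse library cells taken 2 days after it, so that time since labelling and age at collection cannot be told apart. The dissociation covered periosteal as well as articular cartilage cells of the epiphysis. Each library was 1 pool of 3 mice, sorted as CD45-, Ter119-, CD31-, DAPI- and tdTomato+, and there was 1 library per group. No difference between the libraries therefore has a replicate check, no p-value is given, and every interval below covers counting error only.

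The D cyclins bind CDK4 and CDK6 and start the phosphorylation of the retinoblastoma protein, which releases E2F factors and lets a cell enter S phase. The INK4 proteins, here those of Cdkn2a and Cdkn2c, bind CDK4 and CDK6 themselves, whereas the Cip/Kip proteins of Cdkn1a (p21), Cdkn1b (p27) and Cdkn1c (p57) bind complexes of cyclin and CDK, including those with CDK2. In mouse growth cartilage, proliferating chondrocytes leave the cell cycle as they become prehypertrophic, a step that needs the imprinted gene Cdkn1c, whereas articular chondrocytes divide rarely after early life.

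The trace library had 40284041 unique molecular identifiers (UMIs, 1 per captured RNA molecule) in 10423 barcodes, and the pulse library 23306063 in 6863. With 500 or more genes and 10% or less mitochondrial UMIs, 9247 trace cells (median 3645 UMIs) and 6533 pulse cells (median 2837 UMIs) were kept, and 16 barcodes occurred in both libraries. The libraries also differed outside the listed genes: rRNA-associated transcripts made up 8.89% of trace UMIs against 0.961% of pulse UMIs, haemoglobin genes 577 against 11.7 UMIs per 1000000 UMIs (CPM), Xist 360 against 0.130 CPM and the Y-linked Ddx3y 0.331 against 184 CPM. By these sex-linked genes the libraries also differed in sex, which cannot be told apart from time since labelling and age. Cells were assigned to classes by the number of distinct marker genes detected, none of them a listed gene. Chondrocytes were split by the share of their zone-marker UMIs that came from the deeper-zone list, at most 30% for the superficial and at least 70% for the deeper zone. In trace and pulse this gave 209 and 828 deeper-zone chondrocytes and 4573 and 3821 superficial-zone chondrocytes, with 140 and 565 chondrocytes between them. Prg4, which encodes lubricin of the joint surface, stood at 183 CPM in trace and 100 CPM in pulse deeper-zone cells and at 26512 and 9250 CPM in trace and pulse superficial-zone cells. Col9a1, a cartilage collagen gene of the deeper list, stood at 1625 and 3543 CPM in trace and pulse deeper-zone cells and at 7.05 and 34.4 CPM in trace and pulse superficial-zone cells. Prg4 is on the superficial list, so the levels of both genes follow from the gate and are no separate check of it. By these marker gates, the label of both libraries as articular superficial cells did not cover all cells. Trace also held 275 cells with neutrophil, 124 with B lineage and 249 with endothelial markers. The sort had used CD45 and CD31 to leave such cells out.

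In GRCm38 (mm10), Cdkn1a lies at chr17:29090976-29100727 (+), Cdkn1b at chr6:134920401-134925513 (+), Cdkn1c at chr7:143458339-143461050 (-), Cdkn2a at chr4:89274471-89294653 (-), Cdkn2c at chr4:109660876-109667189 (-), Ccnd1 at chr7:144929931-144939925 (-), Ccnd2 at chr6:127125162-127152193 (-) and Ccnd3 at chr17:47505051-47599691 (+). The reads tag 3′ ends, so the INK4 and Arf transcripts of Cdkn2a, which share their last exons, are counted as 1 gene. In the annotation Cdkn1a, Cdkn1c, Ccnd1, Ccnd2 and Ccnd3 overlap a gene on the opposite strand, and how the authors' counting treated strand is not given in the sources used here. Cdkn1a is the textbook target of the p53 protein, and p53 target genes are compared with it below. Of the 2 RefSeq start windows of Cdkn1a, the 1 that holds the motif marked here is shown. The window is 300 bases at chr17:29090729-29091028 (+, GRCm38.p6), and capitals mark a pair of CATG cores 6 bases apart, as in a p53-type element:

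Cdkn1a start window: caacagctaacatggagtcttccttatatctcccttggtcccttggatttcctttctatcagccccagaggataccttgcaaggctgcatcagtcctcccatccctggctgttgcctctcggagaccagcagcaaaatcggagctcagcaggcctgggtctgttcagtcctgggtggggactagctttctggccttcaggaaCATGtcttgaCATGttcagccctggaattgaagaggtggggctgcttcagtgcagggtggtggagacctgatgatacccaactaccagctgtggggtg

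This motif, CATG, 6 bases of any kind and CATG again, which reads the same on both strands, was found in 234 of 32851 such start windows (0.712%), and in neither the other Cdkn1a window nor any window given for Cdkn1b, Cdkn2a, Cdkn2c and Ccnd3. Of 3 E2F-type octamers searched in the same windows, 1 was found, in a Cdkn2a window, and 1.07% of all windows hold it. A match is a description of the letters and not a measured binding site.

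The chondrocyte zones differed in their D cyclins: most D cyclin UMIs were of Ccnd1 in deeper-zone cells and of Ccnd2 in superficial-zone cells. UMIs of a 3′ library compare genes only roughly, since genes can differ in how well they are captured, so the levels and shares of a gene are compared between classes here and not with those of another gene. Ccnd2 stood at 23.8 CPM (95% Poisson interval 16.1 to 34.0) in trace deeper-zone cells, against 161 CPM (156 to 167) in trace superficial-zone cells. In pulse it was 24.7 CPM (20.8 to 29.1) in deeper-zone cells, against 221 CPM (213 to 230) in superficial-zone cells. Ccnd1 went the other way, with 71.4 CPM (57.4 to 87.8) in trace deeper-zone cells against 2.00 CPM (1.44 to 2.70) in trace superficial-zone cells, and 55.0 CPM (49.1 to 61.5) in pulse deeper-zone cells against 3.83 CPM (2.80 to 5.11) in pulse superficial-zone cells. None of these intervals overlapped between zones in either library.

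Expressed as a ratio of deeper-zone over superficial-zone level, Ccnd1 was 35.7 (24.5 to 52.8) in trace and 14.4 (10.5 to 20.0) in pulse, and Ccnd2 was 0.148 (0.0994 to 0.211) in trace and 0.112 (0.0936 to 0.132) in pulse. With these zone limits set at 10% and 90% the trace log2 ratio of Ccnd2 was -5.16 in place of -2.76. In trace only 75 chondrocytes had 90% or more, so trace deeper-zone values at these limits rest on few cells. Ccnd1 made up 63.4% (54.9 to 71.3, exact Clopper-Pearson) of 142 D cyclin UMIs in trace and 55.8% (51.6 to 59.9) of 563 in pulse deeper-zone cells, against 1.08% and 1.52% in trace and pulse superficial-zone cells. Ccnd2 made up 21.1% and 25.0% of D cyclin UMIs in trace and pulse deeper-zone cells, against 87.2% and 87.7% of D cyclin UMIs in trace and pulse superficial-zone cells. With every cell thinned to 2000 UMIs, 22 trace deeper-zone cells had a UMI of Ccnd1 alone, 4 of Ccnd2 alone and 2 of both, among 181 cells. Among 734 pulse deeper-zone cells the numbers were 68, 33 and 5, whereas among 2926 pulse superficial-zone cells they were 13, 965 and 5. A Ccnd1 UMI was seen in 0.743% of trace and 0.995% of pulse superficial-zone cells, at median depths of 4154 and 2847 UMIs. In trace neutrophils, at a median of 2273 UMIs, the share was 1.82%. Whether the superficial-zone UMIs of Ccnd1 are background was not tested. Chondrocytes between the zones lay between them, with 54.9 CPM of Ccnd1 and 108 CPM of Ccnd2 in trace, and 8.28 CPM of Ccnd1 and 159 CPM of Ccnd2 in pulse.

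Ccnd3, the D cyclin best known from lymphocytes, differed less than 2-fold between the chondrocyte zones and was highest in blood cells. It was 17.5 CPM in trace deeper-zone against 21.7 CPM in trace superficial-zone cells, and 18.9 CPM in pulse deeper-zone against 27.1 CPM in pulse superficial-zone cells. Trace B lineage cells had 398 CPM (338 to 464) and trace neutrophils 100 CPM (80.2 to 124), the highest and second highest of 15 class-by-library groups of 50 or more cells (chondrocytes between the zones not counted), although the neutrophil interval overlapped that of trace osteoblast-marker cells at 73.5 CPM (48.4 to 107). Ccnd3 made up 83.4% of D cyclin UMIs in B lineage cells and 75.9% in neutrophils, and 46.6% (33.3 to 60.1) in trace osteoblast-marker cells. Mural cells, the pericytes and smooth muscle of vessels, had as much Ccnd2 (221 CPM in trace) as pulse superficial-zone chondrocytes.

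**Figure D1:**
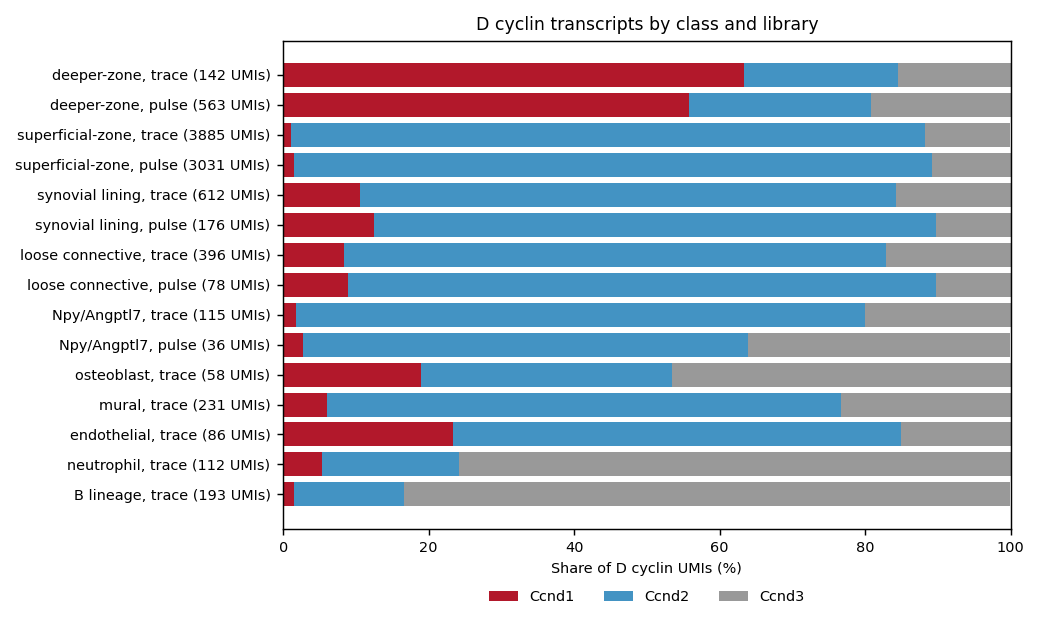
Share of Ccnd1, Ccnd2 and Ccnd3 among D cyclin UMIs (x axis, %) in each marker-gated class and library of 50 or more cells (y axis, with the number of D cyclin UMIs). Ccnd1 fills 63.4% and 55.8% of the trace and pulse deeper-zone bars, Ccnd2 over 87% of the superficial-zone bars, and Ccnd3 most of the B lineage and neutrophil bars.

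Among the Cip/Kip inhibitors, Cdkn1c was higher in the deeper zone of both libraries. In trace it stood at 56.3 CPM (44.0 to 71.1) in deeper-zone against 7.57 CPM (6.44 to 8.84) in superficial-zone cells, a ratio of 7.44 (5.54 to 9.90), or 3.96 in place of 2.90 on the log2 scale with zone limits of 10% and 90%. In pulse it stood at 320 CPM (306 to 335) in deeper-zone against 5.99 CPM (4.69 to 7.55) in superficial-zone cells, a ratio of 53.4 (42.2 to 68.6). Trace chondrocytes between the zones had 59.5 CPM (42.3 to 81.3), an interval that overlapped that of trace deeper-zone cells. Pulse chondrocytes between the zones had 21.7 CPM (15.7 to 29.4). Of the 15 groups of 50 or more cells, the other 14 had intervals below that of pulse deeper-zone cells. The 34 pulse cells with osteoblast markers, too few for that count, were higher, at 709 CPM (612 to 818), most of it in 6 cells described below. B lineage cells of the trace library had 0 Cdkn1c UMIs in 124 cells, which allows up to 7.41 CPM. A UMI of Cdkn1c was seen in 13.4% of trace and 33.1% of pulse deeper-zone cells, against 2.41% and 1.73% of trace and pulse superficial-zone cells and 0.364% of trace neutrophils, at median depths of 5592 and 6356, 4154 and 2847, and 2273 UMIs.

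Cdkn1a was the most counted of the 8 genes in both libraries, with 12462 trace UMIs and 9652 pulse UMIs. Its highest level was in connective cells with Npy and Angptl7, 652 CPM (595 to 713) in trace and 750 CPM (653 to 857) in pulse, whose intervals overlapped. Its lowest level was in trace B lineage cells at 49.4 CPM (30.2 to 76.3), followed by trace neutrophils at 208 CPM (178 to 241). The zones differed by less than 2-fold, with 273 CPM in trace deeper-zone against 250 CPM in trace superficial-zone cells, and 323 CPM in pulse deeper-zone against 440 CPM in pulse superficial-zone cells. The deeper over superficial ratio was 1.09 (0.975 to 1.22) in trace, an interval that includes 1, and 0.735 (0.696 to 0.775) in pulse.

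Cdkn1b, which restrains CDK2 in resting cells, had no gap in its order of levels. Its levels in the 2 chondrocyte zones lay between 36.5 CPM in trace deeper-zone and 55.7 CPM in pulse deeper-zone cells, and all neighbours over the 15 groups had overlapping intervals. Above both superficial-zone intervals lay those of trace neutrophils, at 151 CPM (126 to 180), and B lineage cells, at 101 CPM (72.6 to 137), mural cells at 87.0 CPM (67.0 to 111) and endothelial cells at 76.2 CPM (59.3 to 96.4).

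Over the 15 groups Cdkn2c reached at most 22.8 CPM and Cdkn2a at most 8.83 CPM. Cdkn2c (p18) stood at 12.7 CPM (7.26 to 20.6) in trace deeper-zone against 3.43 CPM (2.68 to 4.32) in trace superficial-zone cells, and at 22.8 CPM in pulse deeper-zone against 2.41 CPM (1.62 to 3.47) in pulse superficial-zone cells, a pulse ratio of 9.44 (6.27 to 14.6). The trace pair was below the level of 20 CPM needed for a count of differences. Cdkn2a, a gene known for its rise in senescent and aged cells, was rare in both zones. In deeper-zone cells it had 0 UMIs in trace, which allows up to 2.38 CPM (3 UMIs), against 16 UMIs in 16 pulse cells, or 2.80 CPM (1.60 to 4.55), so that a difference between the libraries was not detectable at this depth. In superficial-zone cells it had 3 UMIs in 4573 trace and 3 UMIs in 3821 pulse cells. Within pulse the deeper over superficial ratio was 11.2 (3.21 to 60.1), below the level used for counts. Its highest level was in trace endothelial-marker cells, with 8 UMIs or 8.83 CPM (3.81 to 17.4), an interval that overlapped that of pulse deeper-zone cells.

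A difference was counted where a gene reached 20 CPM in at least 1 of the 2 sums and their ratio was 2-fold or more, with no test behind it. By this rule 2 of 6 measured genes were higher (Cdkn1c, Ccnd1) and 1 lower (Ccnd2) in deeper-zone than superficial-zone cells of trace, where 9.44% of all 6082 genes at that level were higher and 12.2% lower (21.7% in all). In pulse 3 of 7 were higher (Cdkn1c, Cdkn2c, Ccnd1) and 1 lower (Ccnd2), where 16.6% of 6988 genes were higher and 13.2% lower (29.8% in all). The kinases they act on differed as well: Cdk6 stood at 209 CPM in deeper-zone against 23.7 CPM in superficial-zone cells of trace, and at 307 CPM against 81.0 CPM in pulse. Cdk4 stood at 44.4 CPM in deeper-zone against 51.9 CPM in superficial-zone cells of trace, but at 123 CPM against 52.6 CPM in pulse, a ratio of 2.34 (2.09 to 2.60). Of 24 G1 to S control genes, 2 were higher and 1 lower of 8 measured in trace, and 8 higher and 0 lower of 13 measured in pulse, with median log2 ratios of -0.01 and 1.28, against -0.14 and 0.03 over all genes of trace and pulse. Cdkn2d, which encodes another INK4 protein, was higher in deeper-zone cells of both, at 2.83-fold in trace and 6.13-fold in pulse.

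**Figure D2:**
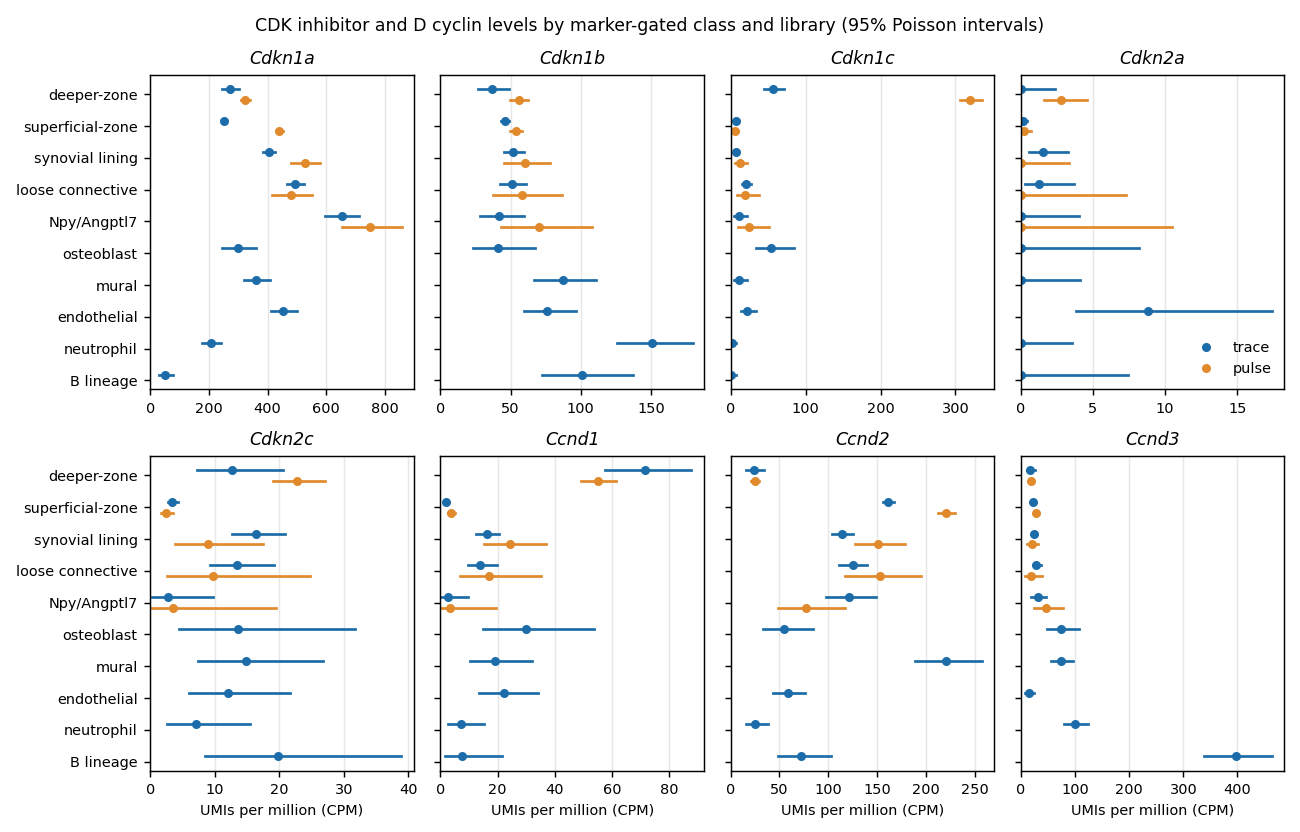
Level of each gene (x axis, CPM, linear, a scale of its own per panel) in each marker-gated class (y axis) of trace and pulse, for groups of 50 or more cells, chondrocytes between the zones not drawn; points are levels from summed UMIs and lines 95% Poisson intervals. Lines at a count of 0 reach the level that 3 UMIs would give. Of the groups drawn, Cdkn1c stands apart in pulse deeper-zone chondrocytes at 320 CPM and Ccnd3 in B lineage cells at 398 CPM. Ccnd1 is highest in deeper-zone chondrocytes of both libraries. Its pulse interval there (49.1 to 61.5) overlaps that of trace osteoblast-marker cells, at 29.9 CPM (14.9 to 53.6).

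Cdkn1c was spread unevenly over the deeper-zone cells. Of 828 pulse cells 274 had a UMI, and 43 cells with 10 or more (5.19%) held 1220 of the 1826 UMIs (66.8%), with up to 144 in 1 cell. Of 209 trace cells 28 had a UMI and 2 had 10 or more, holding 22 of 71 UMIs. No superficial-zone cell of either library reached 10. In 34 pulse cells with osteoblast markers, too few for a count of differences, 6 cells held 182 of 189 Cdkn1c UMIs, whereas 83 such trace cells had 20 UMIs with at most 2 in a cell.

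The pulse cells with 10 or more Cdkn1c UMIs had high levels of genes of prehypertrophic and hypertrophic cartilage. Ihh, the hedgehog signal of prehypertrophic chondrocytes, stood at 1.57 CPM (0.510 to 3.67) in the 554 cells with 0, 5.39 CPM (2.69 to 9.65) in the 231 cells with 1 to 9 and 74.5 CPM (52.2 to 103) in the 43 cells with 10 or more Cdkn1c UMIs. Pth1r, the receptor of parathyroid hormone-related protein, was 68.8, 153 and 696 CPM in the same order, and Col10a1, the collagen of hypertrophic chondrocytes, 196, 290 and 4202 CPM. Panx3, Alpl, Mef2c, Fgfr3, Runx2 and Sp7 had the same order, with Runx2 at 228, 233 and 325 CPM. Mmp13 ran the other way, at 371, 138 and 29.0 CPM. Ibsp (152, 16.7 and 362 CPM), Spp1 (111, 350 and 60.1 CPM) and Runx3 (71.4, 81.4 and 70.4 CPM) had neither order.

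Levels of other genes of the list also differed across these groups of unthinned cells. Ccnd1 was 54.1 CPM (46.3 to 62.8) with 0, 64.7 CPM (54.1 to 76.7) with 1 to 9 and 20.7 CPM (9.93 to 38.1) with 10 or more Cdkn1c UMIs, and Cdkn1a was 298, 333 and 454 CPM. Median depth differed as well, at 5139, 8122 and 10403 UMIs per cell. With every pulse cell thinned to 2000 UMIs, 150 cells with a Cdkn1c UMI had 5.55-fold (4.18 to 7.39) the Pth1r, 5.71-fold (2.83 to 11.8) the Panx3 and 3.62-fold (3.11 to 4.20) the Col10a1 of 584 cells without. Of 12 measured genes of that list 5 were higher (these 3, Mef2c and Alpl) and 1 lower (Mmp13, 0.271), where 6.94% of all 7036 genes were higher and 9.14% lower; the median log2 ratio was 0.83 over the 12 and -0.04 over all genes. Cdkn2c was the 1 other of 6 measured listed genes past 2-fold, at 33.3 CPM with against 11.1 CPM without a Cdkn1c UMI, on 10 and 13 UMIs, a ratio of 2.99 (1.18 to 7.39). By tier of unthinned cells it was 17.6 CPM (13.3 to 22.9) with 0, 32.8 CPM (25.4 to 41.7) with 1 to 9 and 14.5 CPM (5.83 to 29.9) with 10 or more Cdkn1c UMIs, so that it was not highest in the cells with the most Cdkn1c. In the thinned cells Ccnd1 had a ratio of 0.834 (0.444 to 1.47) and Cdkn1a of 1.23 (0.976 to 1.54), and both intervals include 1. Cycle UMIs, defined below, were seen in 18 of 150 and 67 of 584 thinned pulse cells with and without a Cdkn1c UMI. In trace 13 thinned cells had a Cdkn1c UMI, too few for a count of differences. Over the 168 trace cells without one, their ratios were 3.02 (1.56 to 5.46) for Col10a1, 4.00 (2.36 to 6.54) for Alpl, 1.91 (0.787 to 4.05) for Pth1r and 2.87 (0.302 to 13.9) for Panx3, but 0.653 (0.207 to 1.58) for Mmp13, 0.913 for Spp1, 0.923 for Runx2 and 0.946 for Runx3. Ibsp had a ratio of 2.76 (2.36 to 3.22) in these trace cells, against 0.589 in the pulse cells. By tier of unthinned trace cells, 181 had 0 and 26 had 1 to 9 Cdkn1c UMIs. In that order Pth1r was 124 CPM (103 to 147) and 602 CPM (496 to 724). Mmp13 was 368 CPM (332 to 406) and 32.3 CPM (11.8 to 70.2), and Spp1 830 and 1425 CPM. Runx2 was 449 CPM (409 to 491) and 414 CPM (327 to 517), with intervals that overlapped. The tiers and the split were chosen after the values were seen. Col10a1 itself was not limited to these cells: superficial-zone chondrocytes, where Cdkn1c was 7.57 and 5.99 CPM in trace and pulse, stood at 2160 CPM of it in trace and 4576 CPM in pulse.

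**Figure D3:**
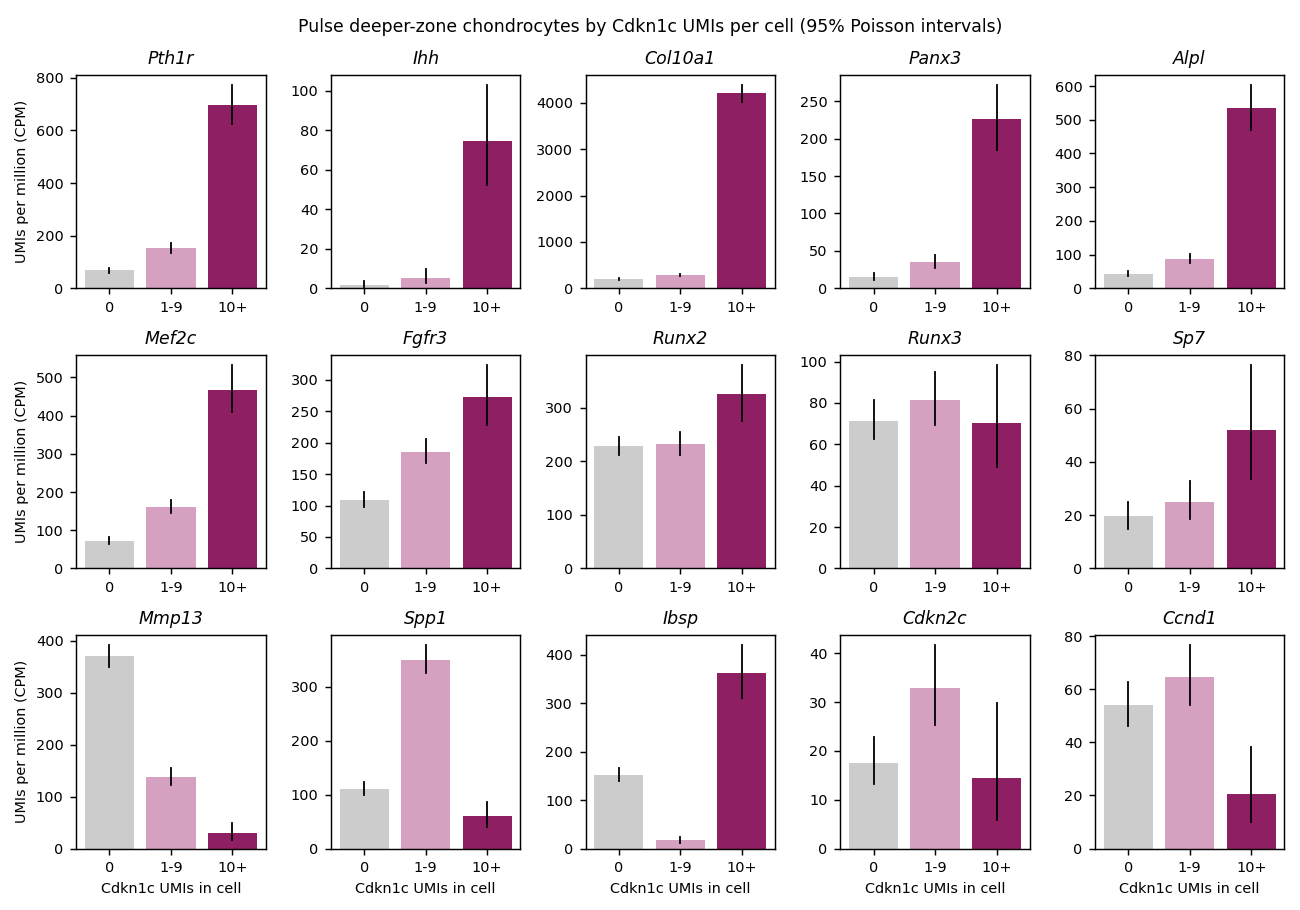
Level of the 13 prehypertrophic and hypertrophic list genes, Cdkn2c and Ccnd1 (y axes, CPM, linear from 0) in pulse deeper-zone chondrocytes with 0 (554 cells), 1 to 9 (231 cells) or 10 or more (43 cells) Cdkn1c UMIs (x axis); lines are 95% Poisson intervals. Pth1r, Ihh, Col10a1, Panx3, Alpl and Mef2c are highest in the cells with 10 or more, Mmp13 in those with 0.

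Cells in cycle were marked by 1 or more UMIs of Top2a (a topoisomerase of dividing cells), Mki67 (the Ki-67 antigen) or Cdk1 (the mitotic kinase). In deeper-zone chondrocytes these were 8 of 209 trace cells (3.83%, 1.67 to 7.40) and 143 of 828 pulse cells (17.3%, 14.8 to 20.0). In superficial-zone chondrocytes they were 26 of 4573 trace cells (0.569%, 0.372 to 0.832) and 65 of 3821 pulse cells (1.70%, 1.32 to 2.16). Of these 65 pulse cells 11 had 2 or more cycle UMIs, so most were marked by 1 UMI. Whether all marked cells were in cycle was not tested. After thinning to 2000 UMIs the shares were 2.76% in trace and 11.6% in pulse deeper-zone cells, and 0.327% in trace and 1.26% in pulse superficial-zone cells. Only the pulse groups had 50 cells on both sides. In pulse deeper-zone cells all 20 G2/M genes and all 16 measured S phase genes were higher with cycle UMIs, where 7.96% of all 6998 genes were higher and 2.69% lower, a direction that the choice of cells bears on.

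Cdkn2c was higher in pulse deeper-zone cells with cycle UMIs. It was 48.8 CPM in 143 cells with cycle UMIs against 14.1 CPM in 685 cells without, a ratio of 3.47 (2.42 to 4.98). It was the only 1 of 6 measured genes past 2-fold, where 7.96% of 6998 genes were higher and 2.69% lower (10.6% in all). The median depth was 9619 UMIs with and 5942 without cycle UMIs; with cells marked on full counts and then thinned to 2000 UMIs, 6.62% (3.07 to 12.2) of cells with and 2.17% (1.16 to 3.69) of cells without cycle UMIs had a Cdkn2c UMI. Its trace ratios pointed the same way on 3 UMIs each, 3.19 (0.582 to 11.6) in deeper-zone and 7.02 (1.41 to 21.4) in superficial-zone cells, whereas pulse superficial-zone cells had 1 UMI with cycle UMIs. Among the other INK4 genes, Cdkn2d was 143 CPM with against 52.2 CPM without cycle UMIs in pulse deeper-zone cells, and Cdkn2a had 9 against 7 UMIs, a ratio of 3.82 (1.27 to 12.1) below the level needed for a count.

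Cip/Kip transcripts were counted in cells with cycle UMIs too. In pulse deeper-zone cells Cdkn1a was 396 CPM with against 299 CPM without cycle UMIs, a ratio of 1.33 (1.20 to 1.47), and Cdkn1b 71.1 CPM against 50.6 CPM, a ratio of 1.40 (1.10 to 1.79). In superficial-zone cells of pulse Cdkn1a was 442 CPM with and 440 CPM without, a ratio of 1.00 (0.824 to 1.21). In the 8 trace deeper-zone cells with cycle UMIs it was 540 CPM, against 254 CPM in 201 without, a ratio of 2.13 (1.53 to 2.91). That value rests on 46 UMIs in 8 cells. After thinning, 2 of 7 trace deeper-zone cells with and 51 of 174 without cycle UMIs had a Cdkn1a UMI. In thinned pulse deeper-zone cells the shares were 40.4% with and 39.5% without for Cdkn1a. For Cdkn1b they were 12.5% and 10.5%, and the intervals overlapped for both genes. Cdkn1c was 193 CPM with against 363 CPM without in pulse deeper-zone cells, a ratio of 0.532 (0.466 to 0.605) that did not pass 2-fold. With 2 or more cycle UMIs asked for, its log2 ratio was -1.78 in place of -0.91, past 2-fold, and with zone limits of 10% and 90% it was -1.06. The share of thinned cells with a Cdkn1c UMI went against this, 24.3% (17.3 to 32.4) with and 19.6% (16.5 to 23.0) without, and no order is read from it. By tier, cycle UMIs were seen in 79 of 554 cells with 0 (14.3%, 11.5 to 17.5), 59 of 231 cells with 1 to 9 (25.5%, 20.0 to 31.7) and 5 of 43 cells with 10 or more Cdkn1c UMIs (11.6%, 3.89 to 25.1). Median depth differed between these tiers, at 5139, 8122 and 10403 UMIs. In thinned cells the shares with cycle UMIs were 12.0% with and 11.5% without a Cdkn1c UMI. In pulse deeper-zone cells Col10a1 was 44.6 CPM with against 745 CPM without cycle UMIs.

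No D cyclin at 20 CPM or more passed 2-fold with the cycle in pulse. In pulse deeper-zone cells Ccnd1 was 66.9 CPM with against 51.1 CPM without cycle UMIs, a ratio of 1.31 (1.02 to 1.67) that stood at -0.15 on the log2 scale once cells were thinned. Ccnd2 had a ratio of 0.704 (0.445 to 1.08) and Ccnd3 of 0.991 (0.616 to 1.55). In pulse superficial-zone cells Ccnd2 was 215 CPM with and 222 CPM without cycle UMIs, a ratio of 0.970 (0.726 to 1.27), and 0 of 4 measured genes passed 2-fold, where 4.49% of 6443 genes were higher and 4.98% lower (9.47% in all). In trace, where too few cells had cycle UMIs for a count, Ccnd3 was 46.4 CPM in the 26 superficial-zone cells with against 21.6 CPM in those without them, a ratio of 2.15 (0.786 to 4.72). These intervals bound the differences and do not show equal levels. Of 15 measured G1 to S genes 6 were higher and 0 lower in pulse deeper-zone cells with cycle UMIs, where 7.96% of all genes were higher and 2.69% lower, among them E2f8 at 13.6-fold, Cks1b at 11.5-fold, Cdkn3 at 10.3-fold and Skp2, whose product marks p27 for breakdown, at 2.20-fold, whereas Cdk4 (1.27) and Cdk6 (1.20) were not past 2-fold. Fos, which rises with tissue dissociation, was 2.55-fold (2.34 to 2.78) in the same cells, and its part in these values was not tested.

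**Figure D4:**
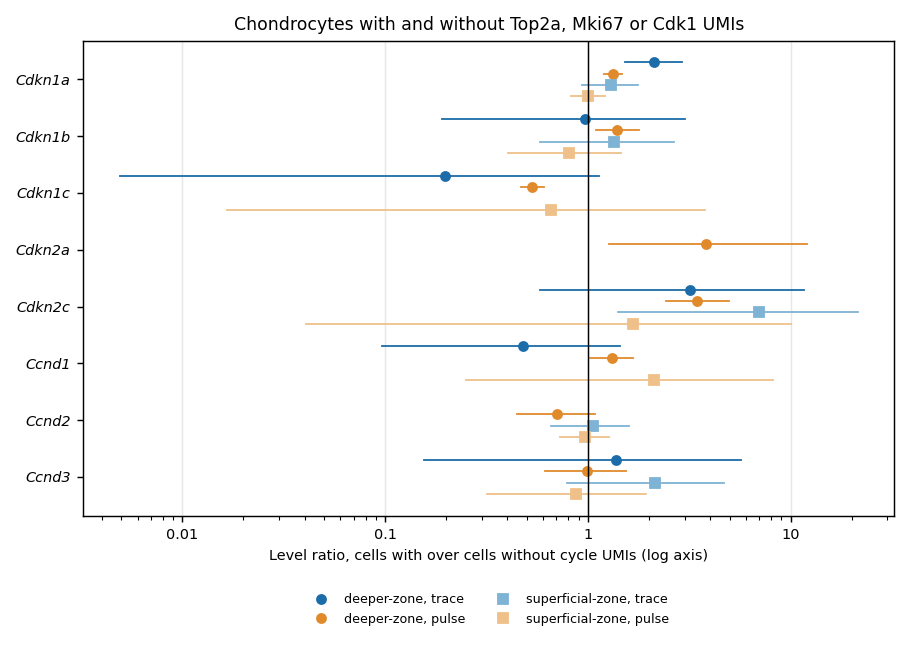
Ratio of the level in chondrocytes with cycle UMIs over those without (x axis, log scale) for each gene (y axis), by zone and library, with 95% Poisson intervals; pairs with under 10 UMIs in all or 0 in a group are not drawn. Cdkn2c lies at 3.47 in pulse deeper-zone cells, Cdkn1c at 0.532, Ccnd1 at 1.31 and Ccnd3 at 0.991.

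Between the libraries, Cdkn1a lay furthest from 1 of the 4 measured genes in superficial-zone chondrocytes. It stood at 250 CPM (244 to 257) in trace and 440 CPM (428 to 452) in pulse, a ratio of 0.569 (0.548 to 0.591), and a UMI was seen in 32.7% of trace and 50.1% of pulse cells after thinning. Ccnd2 stood at 161 CPM in trace and 221 CPM in pulse, a ratio of 0.729 (0.692 to 0.767), with 24.0% and 33.2% of thinned trace and pulse cells. Cdkn1b had a ratio of 0.860 (0.778 to 0.951) and Ccnd3 of 0.800 (0.693 to 0.925). None of the 4 measured genes passed 2-fold, where 2.03% of 6244 genes were higher and 8.92% lower (11.0% in all) and the median of all of them was -0.23 on the log2 scale, against -0.39 over the 4. Scaled by the median ratio, Cdkn1a kept a log2 ratio of -0.58, against -0.81 in CPM, while Cdkn1b stood at 0.01.

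Other targets of p53 were compared in the same cells. Of 11 measured, 0 were higher and 4 lower in trace superficial-zone cells: Ccng1 with 31.5 CPM in trace against 82.8 CPM in pulse, Trp53inp1 with 18.0 against 43.8 CPM, Btg2 with 34.3 against 79.3 CPM and Phlda3 with 15.4 against 32.1 CPM. The median log2 ratio of the 11 was -0.74, against -0.23 over all 6244 genes, of which 2.03% were higher and 8.92% lower. In deeper-zone chondrocytes 0 were higher and 4 lower of 10 measured, where 18.1% of all genes were lower, with a median of -0.41 against -0.36 over all genes. In synovial lining fibroblasts 0 were higher and 3 lower of 11, where 11.8% of all genes were lower, with a median of -0.66 against -0.29. In loose connective tissue fibroblasts 1 was higher and 1 lower of 10, beside 3.31% of all genes higher and 13.1% lower, and their median was -0.44 against -0.31. In cells with Npy and Angptl7 0 were higher and 4 lower of 13, where 18.6% of all genes were lower, with a median of -0.84 against -0.29. In superficial-zone cells Mdm2, the p53 ubiquitin ligase, had a ratio of 0.565 (0.528 to 0.604), while Bax, of cell death, had 1.97 and Gadd45a 1.58. Of 12 genes of dissociation stress 2 were higher (Fos, Fosb) and 2 lower (Egr1, Ier3) in superficial-zone cells, beside the 2.03% and 8.92% of all genes, and their median log2 ratio was 0.05 against -0.23. Their summed level was 4839 CPM in trace against 7432 CPM in pulse, and their part in these values was not tested. Of the kinases of the D cyclins, Cdk6 stood at 23.7 CPM in trace and 81.0 CPM in pulse superficial-zone cells, a ratio of 0.293 (0.262 to 0.326), and Cdk4 at 51.9 and 52.6 CPM.

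In deeper-zone chondrocytes Cdkn1c lay furthest from 1 of the 6 measured genes. It stood at 56.3 CPM in trace and 320 CPM in pulse, a ratio of 0.176 (0.137 to 0.223), and a UMI was seen in 7.18% of thinned trace and 20.4% of thinned pulse cells. It was the only 1 of 6 measured genes past 2-fold, where 3.02% of 6555 genes were higher and 18.1% lower (21.1% in all); all 6555 had a median log2 ratio of -0.36. Without the cells of 10 or more UMIs it was 39.6 CPM (29.3 to 52.3) in trace and 116 CPM (107 to 126) in pulse, a ratio of 0.341 (0.250 to 0.457). Cdkn2c stood at 12.7 CPM in trace and 22.8 CPM in pulse, a ratio of 0.557 (0.309 to 0.940), and with zone limits of 10% and 90% its log2 ratio was -0.05 in place of -0.84. Cdkn1a (0.844), Cdkn1b (0.655) and Ccnd2 (0.963) lay below 1 and Ccnd1 at 1.30 (1.01 to 1.65). Scaled by the median ratio, Cdkn1a and Ccnd2 lay above 1, with log2 ratios of 0.12 and 0.31.

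The deeper-zone cells of the libraries differed in what they held besides these genes. Ibsp, a gene of mineralising cells, stood at 3190 CPM in trace and 121 CPM in pulse, Spp1 at 903 and 192 CPM, Col10a1 at 159 and 568 CPM and Fgfr3 at 42.1 and 150 CPM. Of 7 osteoblast markers 5 had a UMI in trace and 6 in pulse deeper-zone cells, with summed levels of 202 and 106 CPM, and the 7 measured superficial-zone markers summed to 2032 and 908 CPM. Cells with cycle UMIs were 3.83% of trace and 17.3% of pulse cells. All 13 measured G2/M genes and all 7 measured S phase genes were lower in trace, where 3.02% of all 6555 genes were higher and 18.1% lower, with median log2 ratios of -2.07 and -1.78 against -0.36 over all genes. Of 12 measured G1 to S genes 0 were higher and 5 lower, among them Cdk4 at 44.4 CPM in trace and 123 CPM in pulse, and the median over the 12 was -0.65. H19, an imprinted gene of the same distal chromosome cluster as Cdkn1c, stood at 11.1 CPM in trace and 102 CPM in pulse, and of 8 measured imprinted genes 1 was higher (Dcn) and 3 lower (H19, Mest, Grb10), with a median of -0.66; so few genes set nothing apart from the 3.02% higher and 18.1% lower over all genes. rRNA-associated transcripts were higher in trace for all 6 of their list, here as in superficial-zone cells. The part of these differences, and of the sex-linked ones, in the Cdkn1c value was not tested.

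Outside the chondrocytes, counts were made only in synovial lining fibroblasts, loose connective tissue fibroblasts and cells with Npy and Angptl7. The other classes had too few pulse cells. In the classes counted 1 gene, Cdkn1c in cells with Npy and Angptl7, passed 2-fold between the libraries, and not under every setting. Osteoblast-marker cells, not counted, had 54.4 CPM of Cdkn1c in 83 trace cells against 709 CPM in 34 pulse cells. Of the 189 pulse UMIs 182 were in 6 cells. Without those cells the pulse level was 42.5 CPM (17.1 to 87.6). In synovial lining fibroblasts 0 of 5 measured genes passed 2-fold, where 1.57% of 6429 genes were higher and 11.8% lower (13.3% in all): Cdkn1a had a ratio of 0.766 (0.691 to 0.851) and Ccnd2 of 0.754 (0.621 to 0.920). In loose connective tissue fibroblasts 0 of 5 did, where 3.31% of 6684 genes were higher and 13.1% lower (16.4% in all), and Cdkn1a stood at 494 CPM in trace and 480 CPM in pulse. Ccnd3 had a log2 ratio of 0.57 there, which passed 2-fold with 1000 genes per cell (1.18) and with 1 more marker (1.24) but was -0.43 with classes from Leiden clusters. In cells with Npy and Angptl7 1 of 5 was lower, where 6.02% of 6809 genes were higher and 18.6% lower (24.6% in all), but this Cdkn1c value rests on 8 trace and 7 pulse UMIs, with an interval of 0.139 to 1.42 around 0.440. Its log2 ratio was -0.89 without the highest doublet scores and -0.90 with median-ratio scaling, both short of 2-fold. Synovial lining fibroblasts had 16.4 CPM (12.7 to 20.9) of Cdkn2c in trace, and their share with a UMI was 7.89%, against 1.44% of trace superficial-zone chondrocytes at a similar median depth (4497 and 4154 UMIs).

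**Figure D5:**
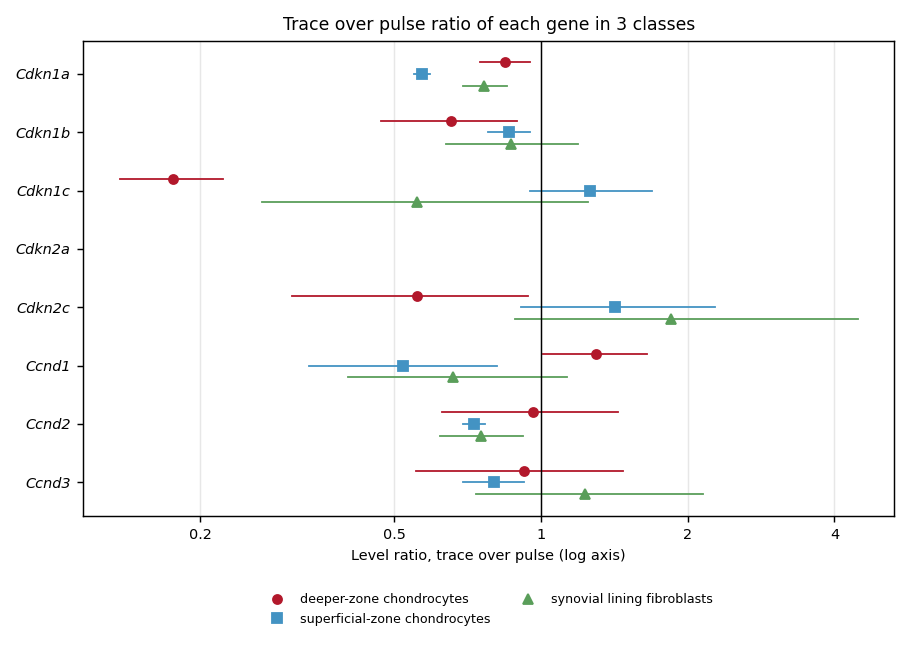
Ratio of trace over pulse level (x axis, log scale) for each gene (y axis) in deeper-zone chondrocytes, superficial-zone chondrocytes and synovial lining fibroblasts, with 95% Poisson intervals; pairs with under 10 UMIs in all or 0 in a group are not drawn. Cdkn1c in deeper-zone cells lies furthest from 1, at 0.176, and Cdkn1a in superficial-zone cells lies at 0.569.

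For each gene the 3 most alike of 4119 genes at 100 CPM or more were taken by the correlation of log2(CPM + 1) over the 15 groups, which share 2 libraries and differ in depth. Cdkn1a was most like Kif1b (r = 0.94), Phlda3 (0.93) and Pkd2 (0.92), Cdkn1b like Usp33 (0.95), Cdc27 (0.92) and Hcls1 (0.90), and Cdkn1c like Pofut2, Eid1 and Serpinh1 (0.88 each). Cdkn2c was most like Atpif1 (0.88), Ndufb5 (0.83) and Atp5l (0.81), and Cdkn2a, on few UMIs, like Ptprb (0.83), Adgrl4 (0.80) and Prex2 (0.79). Ccnd1 was most like Gadd45g (0.83), Rras2 and Ccnl2 (0.78 each), Ccnd2 like Prrx1 (0.91), Atp2b4 (0.87) and Fam20a (0.84), and Ccnd3 like Ero1lb (0.92), Satb1 (0.89) and Dck (0.87). Of these 24 genes only Phlda3 was on a list used here, that of the p53 targets.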

How the data were processed

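The 2 libraries were droplet 3′ single-cell RNA libraries (10x Genomics kit V2, per the labels' protocols). Each deposited matrix gives UMI counts, not normalised, for all genes and barcodes; the file headers name Cell Ranger 7.1.0, whereas the submitters' processing notes name Cell Ranger 3.0.1 and mm10. Of 32286 feature IDs, 32158 (99.6%) are in GENCODE M21. Depth was 40284041 UMIs in trace and 23306063 in pulse.

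Cells needed 500 genes and at most 10% mt- UMIs. A cell joined a non-chondrocyte class with 3 or more distinct markers and 2 more than any other such class (3 or more without that margin left 489 trace and 134 pulse cells out); otherwise it was a chondrocyte with 4 or more of 9 cartilage markers, superficial with at most 30% and deeper with at least 70% of zone-marker UMIs from the deeper list. Near the limits, 110 trace and 483 pulse chondrocytes had 20% to 30% and 44 and 61 had 70% to 80%. In all 1270 trace and 529 pulse cells stayed ungated. Members and lists were chosen with earlier results of these data known; the gate, the 50 cells needed on both sides for a count of differences, the Cdkn1c tiers and the motifs were set after values were seen.

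UMIs were summed per class and library and divided by the sum over all genes (CPM). Intervals are 95%: exact Poisson for levels, exact conditional Poisson for ratios, Clopper-Pearson for shares, all for counting error only; cells are not replicates and nothing was tested across samples. A count of 0 allows 3 UMIs. Thinning drew 2000 UMIs per cell and left shallower cells out. Genes are named by these rules: all 8 members, the 3 most alike, up to 4 per list with the largest ratios, and partners of members; others were chosen after their values were seen. Scrublet at its own threshold marked 0 cells in both libraries, so it did not work, and doublets were handled by the marker margin, with the 5% highest scores left out as an alternative. On simulated counts for trace over pulse in superficial-zone chondrocytes, 197 of 200 genes changed 3-fold were recovered among 5819, with 0 unchanged genes called. Only this comparison and fold change were simulated, so the result does not cover the smaller groups or changes near 2-fold. Software was Python 3.11.15, scipy 1.17.1 and scanpy 1.11.5. Other cells, genes and the sequences of members without a start window were not analysed here.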

Additional observations from a re-analysis of the deposited data

Results flagged for a closer look

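Ccnd1 differed between the libraries in opposite directions in the zones: its trace over pulse ratio was 1.30 (1.01 to 1.65) in deeper-zone chondrocytes and 0.522 (0.335 to 0.811) in superficial-zone chondrocytes. With 1 library per group the difference between these ratios was not tested. The superficial-zone value rests on 42 trace and 46 pulse UMIs, seen in 0.743% of trace and 0.995% of pulse cells. Whether these UMIs are background was not tested.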

How the results depend on the processing

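No paired analysis was possible because each group is 1 library. The results were recomputed with 1000 genes per cell, 1 more marker in the gate, classes from Leiden clusters, the 5% highest Scrublet scores left out, other scalings, a floor of 5 CPM, 2 or more cycle UMIs and thinned counts, and, chosen after seeing the data, zone limits of 10% and 90%. Of 379 gene values 352 stayed within the original interval, and no counted 2-fold difference changed direction; 12 of 48 gene ratios changed sign under some alternative, none of them counted as 2-fold with the settings of the report. Of 71 counts of genes past 2-fold, 63 stayed within 1.5 times. The count in loose connective tissue fibroblasts was 1 (in place of 0) with 1000 genes per cell and with 1 more marker, with Ccnd3 at a log2 ratio of 1.18 and 1.24, in place of 0.57, and at -0.43 by Leiden clusters. In Npy and Angptl7 cells it was 0 (in place of 1) without the highest Scrublet scores and with median-ratio scaling, with Cdkn1c at -0.89 and -0.90. For the cycle it was 2 (in place of 1) in pulse deeper-zone cells with the floor of 5 CPM, with 2 or more cycle UMIs (1 higher, 1 lower) and with zone limits of 10% and 90% (1 higher, 1 lower), and 1 (in place of 0) in pulse superficial-zone cells with the floor of 5 CPM; the cause was not tested. Over all alternatives the log2 ratio of Cdkn1c in deeper-zone cells, trace over pulse, ran between -2.64 and -2.04, that of Cdkn1a in superficial-zone cells between -0.94 and -0.58, and that of Cdkn2c with the cycle in pulse deeper-zone cells between 1.72 and 2.08. Ccnd2, deeper over superficial zone, ran between -5.16 and -2.41 in trace, the lowest with zone limits of 10% and 90%. Only 75 trace chondrocytes had 90% or more. Counts were not made where a group fell under 50 cells: Npy and Angptl7 cells by clusters (0 in both libraries) and with 1 more marker (25 in pulse), and pulse superficial-zone cells with cycle UMIs by 3 settings (11, 37 and 29 cells). 1 cluster with loose connective tissue markers held 509 cells gated as superficial-zone chondrocytes.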
